A study of Mus musculus with 4 samples.

Results

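The genes described here carry lipids between cells or move them out of cells: the apolipoprotein genes Apoe, Apoc1, Apoc2, Apoc4 and Apod, the apolipoprotein J gene Clu, the efflux transporter genes Abca1 and Abcg1, the lipoprotein lipase gene Lpl, and Ch25h, which encodes cholesterol 25-hydroxylase. They are 10 of 37074 gene names on the array and were chosen by symbol, so that every probe carrying a member's symbol was taken, 20 of 56605 probes. The set was drawn up with earlier results of these data known. RNA came from brainstem/cerebellum and from spinal cord of 24-week-old mice, either transgenic (called MSA Tg mice by the submitters) or wild type, on a background of C57BL/6, 129 and C3H in every group. MSA stands for multiple system atrophy, in which alpha-synuclein builds up in oligodendrocytes. The labels give no transgene, promoter or line, apart from a prefix PLP in all 4 titles, and do not say whether a sample was 1 animal or a pool. Each of the 4 groups was 1 one-colour array, so no difference had a replicate check, no test was run, and every value describes these arrays.

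Brain cells exchange cholesterol and phospholipid on lipoprotein particles that are made within the brain, because plasma lipoproteins hardly cross the blood-brain barrier. Apolipoprotein E, released mainly by astrocytes and by activated microglia, is the main protein of these particles. ABCA1 loads lipid onto poor particles and ABCG1 adds more, both under the control of liver X receptors (LXRs), nuclear receptors that sense oxysterols. Lipoprotein lipase splits the triglycerides of particles with apolipoprotein C-II as its cofactor, and cholesterol 25-hydroxylase makes an oxysterol that is released by stimulated macrophages.

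Sequences of the probes are shown for Apoe, where a pair of probes differed in size of change, and for Lpl, where a pair differed in direction. The Apoe probes, here named by the start of their match in the annotated transcript (base 1074 and base 469), were 60 bases long and lay on chromosome 7. Of the Lpl probes, on chromosome 8, only the first 30 of 60 bases are printed. One was annotated to the RefSeq transcript and the other to an Ensembl transcript, ENSMUST00000101463.
Apoe, base 1074: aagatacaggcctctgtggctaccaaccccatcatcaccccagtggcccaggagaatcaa
Apoe, base 469: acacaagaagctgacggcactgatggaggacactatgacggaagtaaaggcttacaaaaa
Lpl, RefSeq transcript: gaacaccaacccacatgcaaaaccccacaa
Lpl, Ensembl transcript: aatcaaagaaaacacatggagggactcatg

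Promoter sequence from RefSeq (assembly GRCm38.p6) was at hand for 6 of the 10 genes, with 8 start sites. The 250 bases before the start site are printed for 3 of the genes that were at least 2-fold higher in transgenic spinal cord and had a motif match. Apoe met both conditions too and is not printed. Abca1 lies on the minus strand at chr4:53159896-53160145, Apoc4 on the minus strand at chr7:19681461-19681710, and Ch25h on the minus strand at chr19:34475149-34475398. Capitals mark the loose LXR match in Abca1 and the cAMP response element in Ch25h.
Abca1: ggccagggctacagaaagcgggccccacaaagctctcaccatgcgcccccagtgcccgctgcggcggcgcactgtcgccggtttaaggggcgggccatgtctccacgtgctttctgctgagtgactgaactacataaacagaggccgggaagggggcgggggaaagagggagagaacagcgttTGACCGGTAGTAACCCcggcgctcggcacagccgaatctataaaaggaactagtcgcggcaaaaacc
Apoc4: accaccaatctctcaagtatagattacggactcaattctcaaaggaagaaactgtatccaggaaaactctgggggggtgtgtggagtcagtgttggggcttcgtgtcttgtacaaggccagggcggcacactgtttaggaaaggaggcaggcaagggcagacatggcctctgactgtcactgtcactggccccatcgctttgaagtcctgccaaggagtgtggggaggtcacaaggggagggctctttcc
Ch25h: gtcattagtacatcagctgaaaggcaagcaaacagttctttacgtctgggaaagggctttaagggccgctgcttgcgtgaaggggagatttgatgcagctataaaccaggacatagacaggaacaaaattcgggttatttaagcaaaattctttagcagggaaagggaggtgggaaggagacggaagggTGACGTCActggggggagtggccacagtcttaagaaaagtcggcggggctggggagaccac

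The windows searched held these bases and the 50 after the start site, 300 in all, and both strands were read. No member promoter held the LXR direct repeat (AGGTCA repeated after a spacer of 4 bases) with at most 2 mismatches at its 12 fixed letters, which 3.02% of 32851 RefSeq promoters held. With 3 mismatches, a limit loosened after none was found, Abca1 matched at base -67 as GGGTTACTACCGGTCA on the strand opposite to the gene, and 21.9% of promoters did. Ch25h held the cAMP response element TGACGTCA at base -61, as 1.79% of promoters did. The SP1 letters GGGCGG, in 35.7% of promoters, stood in Abca1 at bases -163 and -97 and in Apoc4 at base -130. The TATA letters TATAAA, in 13.6%, stood in Abca1 at base -29, in Ch25h at base -151 and in 1 of the 3 Apoe start sites. The E-box CACGTG, in 7.15%, stood in Abca1 at base -147. None of the member promoters held AP-1 (TGANTCA, 7.81% of promoters), the interferon response letters (a pair of GAAA 2 bases apart, 3.44%), STAT (TTCNNNGAA, 8.3%) or NF-kB (GGGA and TTTCC with 1 base between, 0.411%), which says only that these letters were not in these windows.

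Levels are given as the processed signal of a spot on its linear scale, and differences as log2 of that signal after the 75th percentile of each array was subtracted, transgenic minus wild type. That percentile was a signal of 458 in transgenic and 437 in wild-type brainstem/cerebellum, and 409.5 in transgenic and 678 in wild-type spinal cord, so signals of the spinal cord arrays cannot be compared before this step. Between 59.2% and 64.0% of spots were well above background and none was saturated. The wild-type spinal cord array lay on another slide than the other 3, so slide and genotype cannot be told apart in spinal cord. In the wild-type mice, slide and tissue cannot be told apart. Repeated spots of 1 probe gave a technical SD of a difference of 0.09 for bright and 0.73 for the dimmest probes, which leaves out animals and hybridisations. Where ± follows a difference below, it stands for this error. For the brightest Apod probe, which was spotted repeatedly, the ± is that of the mean of its spots and so smaller. Region genes followed the tissue labels. The cerebellar gene Gabra6 had signals of 7470.4 and 6728 in transgenic and wild-type brainstem/cerebellum and was not well above background in either spinal cord. Hoxc8, a gene of the trunk spinal cord, had 893 in transgenic and 2833 in wild-type spinal cord and was not well above background in brainstem/cerebellum.

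In spinal cord, 7 of the 10 genes were at least 2-fold higher on the transgenic array and none was lower: Apoe, Apoc1, Apoc2, Apoc4, Abca1, Lpl and Ch25h. Over all genes measured in that comparison, 9.23% were at least 2-fold higher and 8.62% lower. Because the members were chosen with earlier results of these data known, such shares describe the arrays and do not test the set. In brainstem/cerebellum 3 of 10 passed 2-fold upward and 0 downward, where 3.52% of all genes were higher and 0.682% lower. They were Apoc2, Apoc4 and Ch25h. The members' median difference was 0.49 in brainstem/cerebellum and 1.69 in spinal cord, beside medians of -0.04 and -0.07 over all 22447 and 23260 genes measured. With scaling on the spike-in controls, the median of all genes in spinal cord went from -0.07 to -0.52 and the members' median to 1.23, with 1220 genes higher and 5294 lower in place of 2146 and 2006. That scaling rests on 7 spike-in probes, whose own spinal cord differences ran from -0.18 to 0.67 around a median of 0.42. In brainstem/cerebellum, where 790 were higher and 153 lower, median scaling gave 602 and 247. Only bulk tissue was measured, so more cells of a type and more RNA per cell cannot be told apart.

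**Figure D1:**
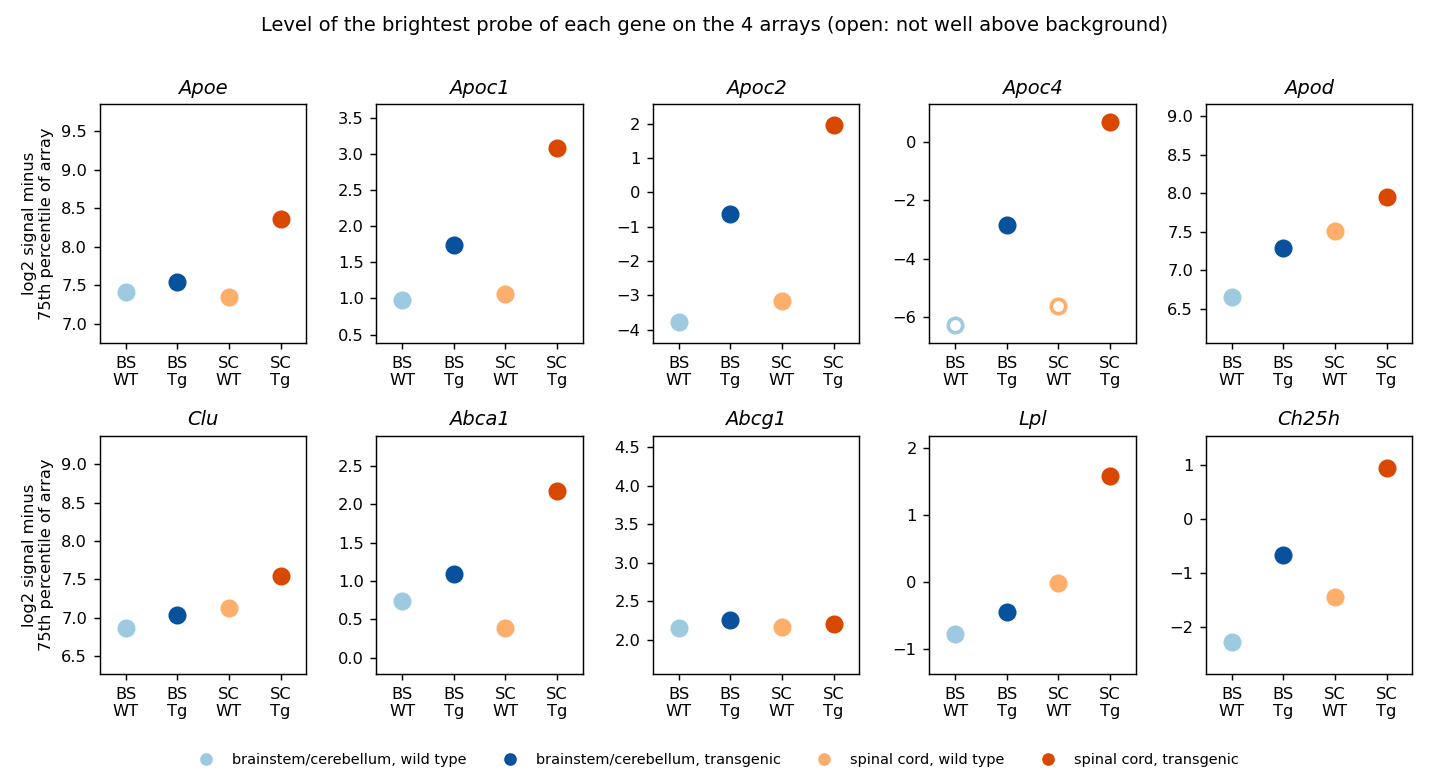
Level of each gene's brightest probe on the 4 arrays, as log2 signal minus the 75th percentile of the array; BS is brainstem/cerebellum, SC spinal cord, WT wild type and Tg transgenic, and each point is 1 array. For 9 of the 10 genes the transgenic spinal cord array is the highest point, and open points, seen for Apoc4, were not well above background.

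Apoe, Apoc1, Apoc4 and Apoc2 are neighbours on chromosome 7, and their 6 probes spanned 24.8 kb of the mouse build mm9 (20257027 to 20281791), on which the files place the probes. Apoe had the smallest difference of the 4 in both tissues. Its signal was 74458 in wild-type and 85339 in transgenic brainstem/cerebellum and 110470.4 in wild-type and 134243 in transgenic spinal cord. After scaling, 3 arrays stood between 7.35 and 7.54 and transgenic spinal cord above them at 8.36. The difference was 0.13 ± 0.09 in brainstem/cerebellum and 1.01 ± 0.09, or 2.01-fold, in spinal cord. The spinal cord value lay just past 2-fold and fell below it when arrays were scaled on their medians (0.95) or on spike-in controls (0.54). In brainstem/cerebellum, median scaling turned the sign of Apoe (-0.04). The probe at base 469 gave larger values, with signals of 21945 and 28870 (wild type, then transgenic) in brainstem/cerebellum and 36204 and 63614 in spinal cord. Its differences were 0.33 ± 0.09 and 1.54 ± 0.09, the latter 2.91-fold, so both probes stood highest in transgenic spinal cord and disagreed on the size.

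Apoc1 encodes a small apolipoprotein that hinders the uptake of particles by their receptors. Its signal was 865 in wild-type and 1532 in transgenic brainstem/cerebellum, and 1419 in wild-type and 3479.9 in transgenic spinal cord. The wild-type tissues were level after scaling (0.98 and 1.06), and both transgenic arrays stood above them. The differences were 0.76 ± 0.10 in brainstem/cerebellum, short of 2-fold, and 2.02 ± 0.10, or 4.06-fold, in spinal cord.

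Apoc2, the cofactor of lipoprotein lipase, had the largest measured difference of the members. Its signal was 31.6 in wild-type and 297 in transgenic brainstem/cerebellum, and 76.1 in wild-type and 1591 in transgenic spinal cord. Both transgenic arrays stood above both wild-type arrays. The differences were 3.16 ± 0.21, or 8.95-fold, and 5.11 ± 0.20, or 34.6-fold. They ranked 38th of 22447 genes in brainstem/cerebellum and 27th of 23260 in spinal cord. A further probe of the gene had signals of 5.61 (not well above background) and 85.0 in brainstem/cerebellum and 23.6 and 523 in spinal cord. It gave at least 6.98-fold in brainstem/cerebellum and 36.6-fold in spinal cord, so both probes placed the arrays in the same order.

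Apoc4, a minor apolipoprotein of very-low-density lipoprotein that is made chiefly in liver, was not well above background on either wild-type array. Its signals there were 5.63 in brainstem/cerebellum and 13.8 in spinal cord, against 63.2 and 657 on the transgenic arrays. Only a lower bound can therefore be given, the brighter value over the higher of the dim signal and the lowest signal that was well above background on the dim array. The bounds were at least 5.19-fold in brainstem/cerebellum and at least 78.9-fold in spinal cord, ranks 99 and 7. Background correction by normexp, which damps dim signals, left 0.81 on the log2 scale in brainstem/cerebellum, below 2-fold, and 3.60 in spinal cord. RefSeq lists a gene, Gm44805, that spans both Apoc4 and Apoc2, and no probe tells such a read-through transcript from the single genes. Of the 4 genes defining hepatocytes, Alb was not well above background in wild-type spinal cord or in brainstem/cerebellum and had a signal of 16.3 in transgenic spinal cord. There Apoa2 stood at -0.88 and Serpina1a at 0.67 relative to wild type, and Ttr was not well above background on either spinal cord array. In brainstem/cerebellum Apoa2 stood at 0.04, Serpina1a at -0.20 and Ttr, which the choroid plexus makes too, at -0.23. The summed scaled signal of the 4 was 94.2 in wild-type and 80.4 in transgenic brainstem/cerebellum and 2.47 and 1.47 in spinal cord. Ttr made up most of this sum in brainstem/cerebellum and Apoa2 most of it in spinal cord. The part of these 4 genes' cells in the values of Apoc4 was not tested.

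The 5 protein-coding genes with a probe on each side of these 4 genes were set beside them, a choice made after the values were seen. In spinal cord, 2 of the 10 flanking genes were at least 2-fold higher, Relb at 1.49 and Bcl3 at 3.48, both NF-kB family genes. The other 2 probes of Relb disagreed, at -1.26 and 1.35. In brainstem/cerebellum Bcl3 stood at 2.36 and Relb at 0.38. The other 8 lay between -0.66 (Zfp296) and 0.74 (Nectin2, listed as Pvrl2) in spinal cord, although a dimmer probe of Nectin2 reached 1.48. Tomm40, the gene next to Apoe, stood at -0.21 in brainstem/cerebellum and -0.59 in spinal cord, and Clptm1, next to Apoc2, at -0.24 and 0.16. The genes directly beside the cluster on either side therefore stayed short of 2-fold in both tissues.

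**Figure D2:**
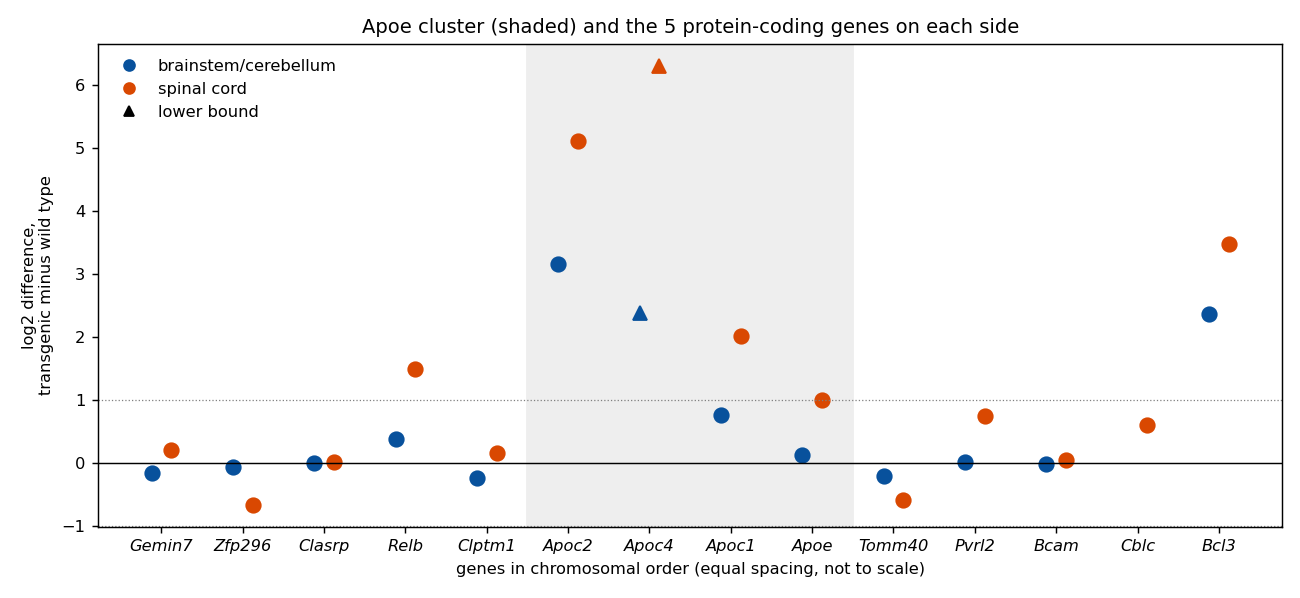
Log2 difference, transgenic minus wild type, of the 4 Apoe cluster genes (shaded) and the 5 genes on each side in chromosomal order; circles are measured differences from 1 array per group, triangles lower bounds, and dotted lines mark 2-fold. Apoc2 and Apoc4 stand highest in both tissues, the direct neighbours Clptm1 and Tomm40 lie between -0.59 and 0.16, and Bcl3 stands apart at 2.36 and 3.48.

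Apod encodes a lipocalin that binds small lipids and rises in injured nerve and brain. Its brightest probe, spotted 10 times on each array, had mean signals of 44067 ± 1039 (SD of spots) in wild-type and 71693 ± 2645 in transgenic brainstem/cerebellum. In spinal cord they were 124192 ± 2362 in wild-type and 101442 ± 9219 in transgenic tissue. The differences after scaling were 0.63 ± 0.03 and 0.43 ± 0.03, where ± is that of a mean of spots, unlike for probes spotted once. The latter was -0.04 with spike-in scaling, so the direction in spinal cord rests on the scaling. A dimmer Apod probe, with 9775 and 16746 in brainstem/cerebellum and 27556 and 49440.4 in spinal cord (wild type, then transgenic), gave 0.71 ± 0.09 and 1.57 ± 0.09. The probes of Apod gave close values in brainstem/cerebellum and differed in spinal cord, where only the dimmer one passed 2-fold.

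Clu, a secreted chaperone and lipid carrier of astrocytes, stayed short of 2-fold at its brightest probe. Its signal was 50953 in wild-type and 60009.6 in transgenic brainstem/cerebellum, and 94779.65 in wild-type and 76201 in transgenic spinal cord. The differences of 0.17 ± 0.09 and 0.41 ± 0.09 were small, and that in spinal cord was -0.06 with spike-in scaling. A further Clu probe, annotated to an Ensembl transcript, was well above background on the transgenic spinal cord array alone, with a signal of 34.2, at least 4.52-fold over wild type. With the mean of both probes, the Clu difference in spinal cord was 2.34, past 2-fold. That mean takes in the further probe's wild-type signal of 2.93, which was not well above background. The value of 2.34 is therefore not a measured difference.

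The transporter genes gave unlike values. Abca1 had signals of 728 in wild-type and 973 in transgenic brainstem/cerebellum, and 886 in wild-type and 1849 in transgenic spinal cord. After scaling, wild-type spinal cord was the lowest of the 4 arrays and transgenic spinal cord the highest. The differences were 0.35 ± 0.10 and 1.79 ± 0.10, the latter 3.46-fold. A dim Abca1 probe passed background in transgenic spinal cord alone (22.7), for a bound of at least 2.65-fold.

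Abcg1 stood at 1936 in wild-type and 2189.5 in transgenic brainstem/cerebellum and at 3048 in wild-type and 1883 in transgenic spinal cord. Once scaled, the 4 arrays lay between 2.15 and 2.26, the narrowest range of the members. Its differences of 0.11 ± 0.11 and 0.03 ± 0.11 were at most about 1 technical SD, and their sign turned with median scaling in both tissues (-0.06 and -0.02). With spike-in scaling the spinal cord difference was -0.44, close to the shift of all genes.

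Lpl is the gene with most probes, 6 in all. Its brightest had signals of 255 in wild-type and 337 in transgenic brainstem/cerebellum, and 669 in wild-type and 1221 in transgenic spinal cord. Both spinal cord arrays lay above both brainstem/cerebellum arrays. The genotype differences were 0.33 ± 0.11 in brainstem/cerebellum and 1.60 ± 0.11, or 3.02-fold, in spinal cord. The probe at base 1340 of the same transcript, with signals from 35.6 to 210 (209.8849 in transgenic spinal cord), gave 0.58 ± 0.27 and 1.58 ± 0.15. Of 3 dimmer probes, none was well above background in brainstem/cerebellum. In spinal cord they gave 1.28 ± 0.55, 1.88 ± 0.55 and a bound of at least 3.04-fold, from signals of 23.0 to 34.6 in transgenic tissue.

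One Lpl probe went the other way. The probe annotated to the Ensembl transcript had signals of 109 in wild-type and 146 in transgenic brainstem/cerebellum, and 219 in wild-type and 73.0 in transgenic spinal cord, the lowest of the 4. Its differences were 0.35 ± 0.16 and -0.86 ± 0.16. It lies at 71413311 to 71413370 of chromosome 8 in mm9, upstream of the brightest probe at 71430267 to 71430326. Of the 6 Lpl probes, 5 were higher and 1 lower in transgenic spinal cord, and the 5 include the dimmer probes close to background.

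Ch25h, which is induced in macrophages by inflammatory signals, was at least 2-fold higher in both tissues. Its signal was 90.5 in wild-type and 289 in transgenic brainstem/cerebellum and 251 in wild-type and 781 in transgenic spinal cord. Transgenic arrays stood above wild-type arrays of either tissue. The differences were 1.61 ± 0.15, or 3.05-fold, and 2.36 ± 0.12, or 5.15-fold, ranks 308 and 497. Apoc2 and Ch25h were past 2-fold in both tissues under all 10 ways of processing that gave a value.

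**Figure D3:**
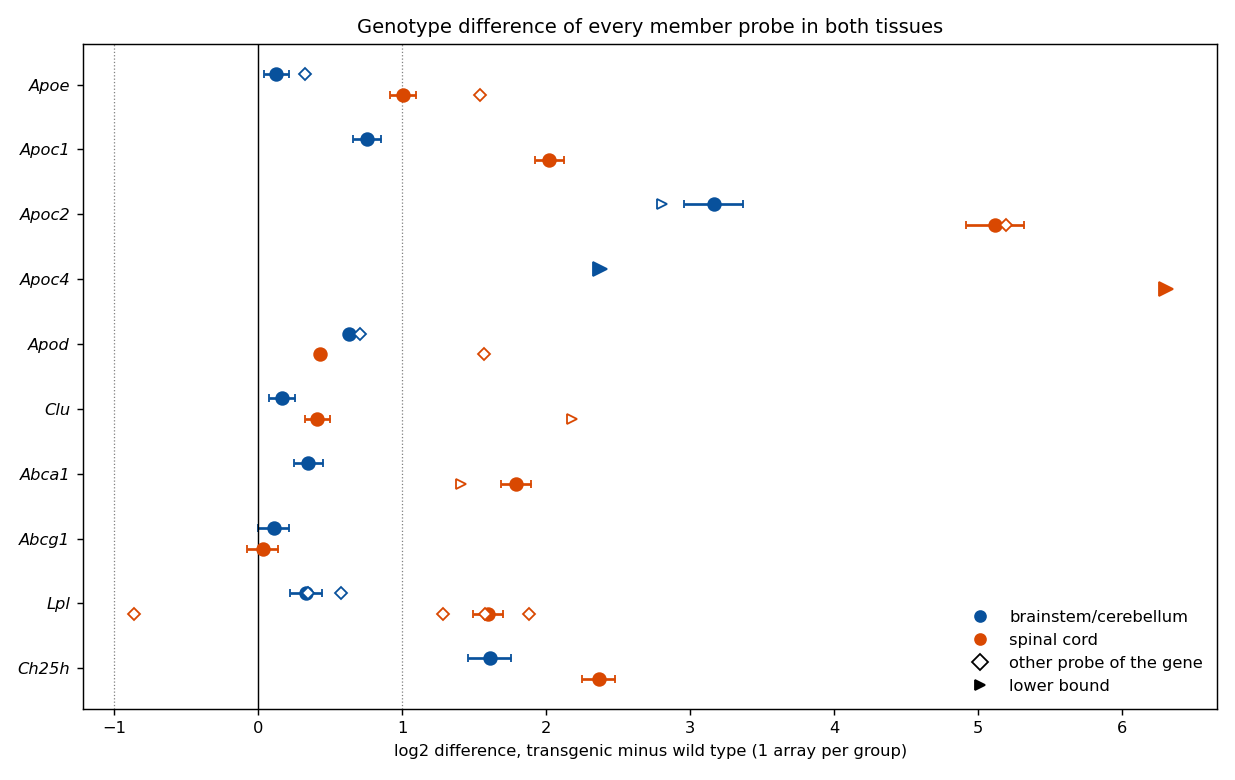
Log2 difference, transgenic minus wild type, of every member probe in brainstem/cerebellum (blue) and spinal cord (orange), with 1 array per group; filled symbols are the brightest probe with bars of 1 technical SD, open symbols the other probes, triangles lower bounds, and dotted lines 2-fold. Only the Lpl probe at -0.86 lies clearly to the left of 0.

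**Figure D4:**
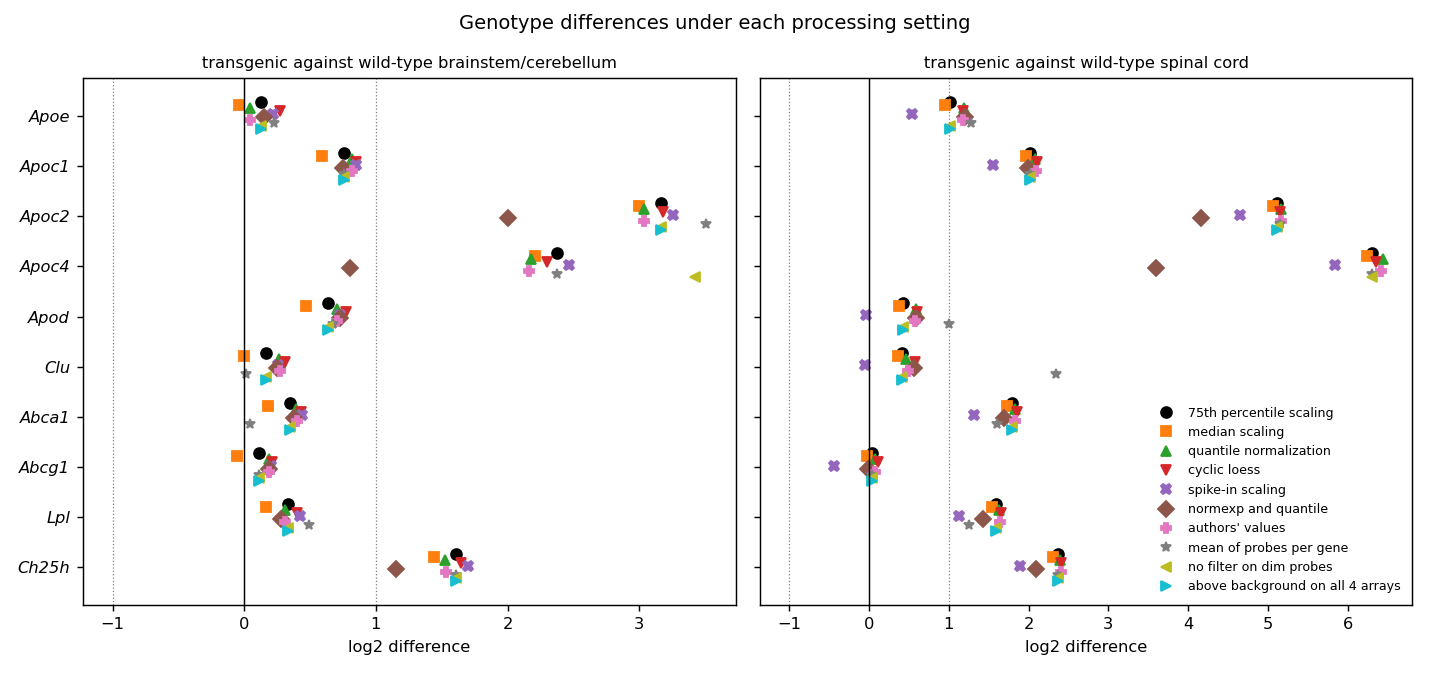
Genotype difference (log2) of each gene under the 75th percentile scaling and 9 other ways of processing, in brainstem/cerebellum (left) and spinal cord (right), with dotted lines at 2-fold. The brightest probe stands for a gene, except in the setting that takes the mean of its probes. Spike-in scaling moves all spinal cord values to the left, Apoe to 0.54, and normexp lowers the dim genes Apoc2 and Apoc4.

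The genotype difference was larger in spinal cord than in brainstem/cerebellum for 7 of the 9 members measured on all arrays, and for 49.7% of all 20105 such genes. This difference of differences was 1.95 ± 0.29 for Apoc2, 1.44 ± 0.14 for Abca1, 1.26 ± 0.16 for Lpl and 0.88 ± 0.13 for Apoe. It was -0.20 ± 0.04 for Apod and -0.08 ± 0.15 for Abcg1, the exceptions among the brightest probes. Other probes disagreed in sign: the dimmer Apod probe gave 0.86 ± 0.13, and the Lpl probe of the Ensembl transcript -1.21 ± 0.22. The median was 0.88 over the members and -0.004 over all genes. No test of it was possible with 1 array per group, and it compares 1 difference within a slide with 1 across slides.

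The tissue comparisons use the same 4 arrays. Between the wild-type arrays, no member was 2-fold higher or lower in spinal cord at its brightest probe. Over all 22827 genes, 8.98% were higher and 5.16% lower. The Lpl probe at base 1340 stood at 1.07, just past 2-fold. The members' differences, spinal cord minus brainstem/cerebellum, ran from -0.35 for Abca1 to 0.86 for Apod, with a median of 0.26. Apod, Ch25h (0.84), Lpl (0.76) and Apoc2 (0.63) were the higher ones. Apoe (-0.07), Apoc1 (0.08) and Abcg1 (0.02) lay within their technical error. Apoc4 has no value, since both arrays were not well above background.

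Between the transgenic arrays, which share a slide, spinal cord was at least 2-fold higher for 6 of 10 members and lower for none, beside 9.99% of all 23075 genes higher and 7.22% lower. Apoc4 differed by 3.54, Apoc2 by 2.58, Lpl by 2.02, Ch25h by 1.59, Apoc1 by 1.34 and Abca1 by 1.09. Apoe (0.81), Apod (0.66) and Clu (0.51) stayed short of 2-fold and Abcg1 stood at -0.06. The median over these brightest probes was 1.22. Other probes passed 2-fold: that of Apoe at base 469 (1.30), the dimmer one of Apod (1.72) and the further one of Clu (at least 3.52-fold). The Lpl probe of the Ensembl transcript went the other way, at -0.84. Spike-in scaling left 4 of the 6 past 2-fold, beside 1369 of all 23000 genes.

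Genes of the same pathway were taken from 7 lists, chosen with earlier results of these data known. Of 6 related apolipoproteins measured, 1 was at least 2-fold higher in brainstem/cerebellum (Apoc3, at 1.01) and none in spinal cord, where the median was -0.25 and Apoc3 stood at 0.07. Apoc3 lay just past 2-fold, and no gene of the list passed it in brainstem/cerebellum with median scaling, quantile normalization, cyclic loess, normexp, the authors' values or the mean of probes. With spike-in scaling 3 of these apolipoproteins were lower in spinal cord. Under that scaling 1220 of all 23751 genes measured in spinal cord were higher and 5294 lower. The spike-in counts of every list are to be read beside that share. The 13 LXR and RXR receptors and LXR targets had medians of -0.13 and 0.07, with none past 2-fold in brainstem/cerebellum and 2 lower in spinal cord. These were Pltp, a phospholipid transfer protein, at -1.38, and the fatty acid desaturase gene Scd1 at -1.05. The count of 2 was 1 with quantile normalization, cyclic loess, normexp and the authors' values, and 3 with spike-in scaling. Pltp and Scd1 are LXR targets like Abca1.

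Other lipid transporters had medians of -0.10 and -0.16 over 13 genes, with 1 higher and 1 lower in spinal cord. Npc2, a lysosomal cholesterol carrier, was at 0.46 in brainstem/cerebellum and 1.34 in spinal cord, and the lipoprotein receptor gene Scarb1 at 0.23 and -1.08. Of 14 lipoprotein and scavenger receptors 1 was higher in brainstem/cerebellum and 4 in spinal cord, with medians of 0.10 and 0.40. The macrophage scavenger receptor gene Msr1 was at least 2.57-fold and 21.0-fold higher, Olr1 at least 1.59-fold and 9.11-fold, and Cd36, a fatty acid receptor gene, 1.13-fold and 3.86-fold. The fourth, named after its value was seen, was Stab1 at 1.61. With spike-in scaling 2 receptors were lower in spinal cord, and of the transporters none was higher and 3 were lower. With normexp no transporter was lower.

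Of 10 lipases and regulators of lipoprotein lipase, 1 was higher in brainstem/cerebellum and 2 in spinal cord, with medians of 0.11 and 0.27. Angptl4, an inhibitor of lipoprotein lipase, was at 1.26 and 1.65, and Lipa, the lysosomal acid lipase gene, at 0.14 and 1.13. With spike-in scaling 1 was higher and 1 lower in spinal cord, and with median scaling 1 was lower. Of 11 oxysterol and cholesterol ester enzymes none passed 2-fold in brainstem/cerebellum, and 2 were higher and 1 lower in spinal cord, with medians of -0.08 and -0.15. Soat2, which makes cholesterol esters, was at least 1.23-fold and 7.61-fold higher, Hsd3b7, of bile acid synthesis, was at 0.07 and 1.19, and Stard4, a sterol carrier, at -0.15 and -1.23. With spike-in scaling 1 of these enzymes was higher and 4 were lower in spinal cord.

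Lipid droplet and fatty acid binding genes had 2 of 10 higher in brainstem/cerebellum and 4 higher and 1 lower of 12 in spinal cord, with medians of 0.11 and 0.09. The droplet coat gene Plin4 was at 1.80 and 2.42 and the brain fatty acid binding gene Fabp7 at 0.41 and 1.82. Plin5 (1.14 and 1.29) and Plin2 (1.35 in spinal cord, -0.04 at its other probe) are named after their values were seen. Cidec, a droplet protein gene of fat cells, was lower at -2.55 in spinal cord. The count in brainstem/cerebellum was 1 with median scaling, and spike-in scaling gave 2 higher and 4 lower in spinal cord. Genes of fat cells moved with it: the summed scaled signal of 5 adipocyte markers was 0.988 in wild-type and 0.306 in transgenic spinal cord, and 0.177 in wild-type and 0.136 in transgenic brainstem/cerebellum. All 5 were well above background in wild-type spinal cord, 2 in transgenic spinal cord and 1 in each brainstem/cerebellum sample. Their part in the values of Lpl and Cidec was not tested.

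**Figure D5:**
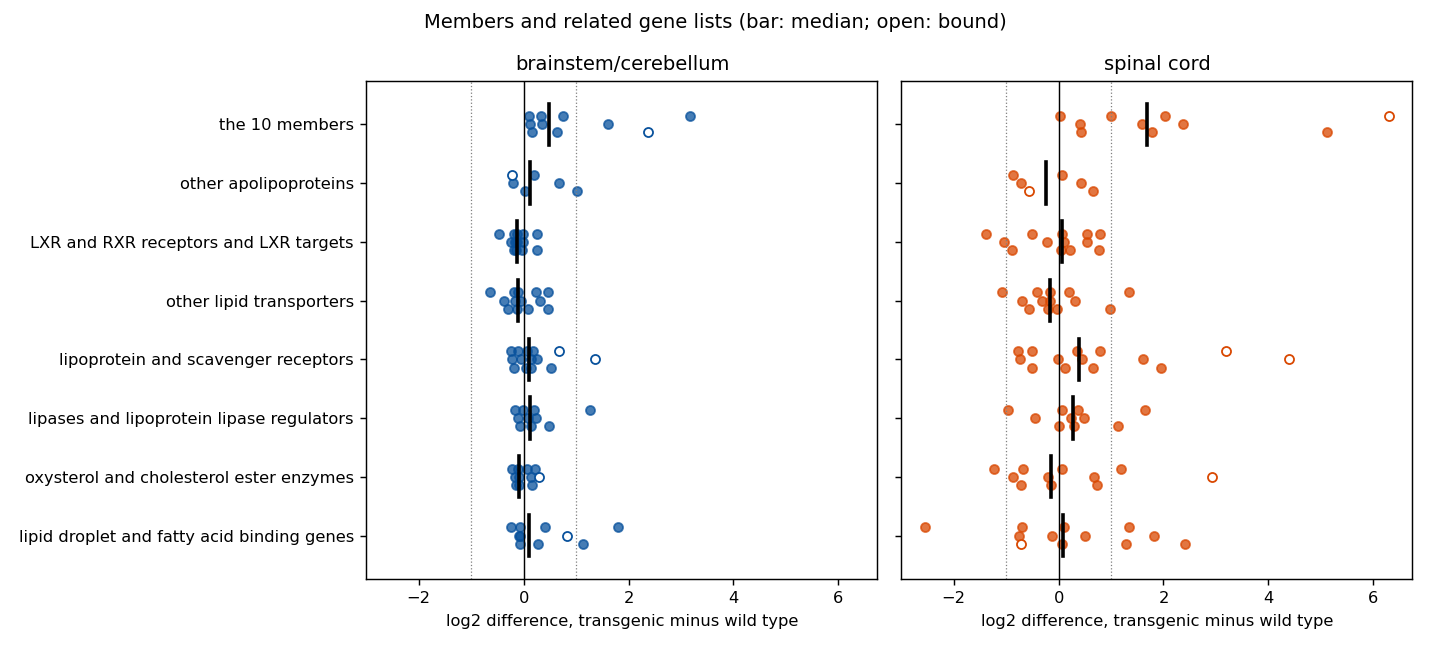
Log2 difference, transgenic minus wild type, of the 10 members and of each related list in brainstem/cerebellum (left) and spinal cord (right); each point is a gene from 1 array per group, open points are bounds, black bars medians and dotted lines 2-fold. The members' median of 1.69 in spinal cord stands above the medians of the 7 lists, which lie between -0.25 and 0.40. Members and lists were chosen with earlier results of these data known.

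Markers of cells that can make these proteins also differed. Of 9 disease-associated microglia genes, 7 passed 2-fold upward in brainstem/cerebellum and 9 in spinal cord, with medians of 1.84 and 3.73. Their summed scaled signal was 34.2 in wild-type and 75.1 in transgenic brainstem/cerebellum and 40.6 in wild-type and 278 in transgenic spinal cord. General microglia markers were higher in 2 of 9 and in 5 of 9, with 1 lower in spinal cord (Siglech, at -1.62), and had sums of 36.8, 58.8, 81.3 and 141 in the same order. Macrophage markers were higher in 4 of 7 and 2 of 7, led by Ms4a7 at 3.24 and 6.12, and summed to 22.0, 47.0, 29.6 and 185. In spinal cord the other one past 2-fold was Lyz2 (3.03), which made up most of both sums there. The remaining measured markers lay between 0.05 and 0.81 in spinal cord.

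Astrocyte markers had 2 of 8 higher in each tissue, with 2 lower in spinal cord. Their medians were 0.20 and 0.34 and their sums 57.0, 72.9, 83.9 and 114. Only Gfap was higher in both tissues (1.43 and 1.08), and its other probe stayed short of 2-fold in both (0.81 and 0.40). Gja1 stood at 1.95 in brainstem/cerebellum, where its other measured probes lay between -0.28 and 0.50. In spinal cord it stood at -1.81, and its other measured probes lay between -0.43 and -0.41. Oligodendrocyte markers had medians of 0.05 and 0.24, and neuron markers -0.16 and -0.51. Schwann cell markers had a median of -1.74 in spinal cord, with 2 of 3 lower, and skeletal muscle markers of -1.003, with 2 of 4 lower. Choroid plexus markers, among them Ttr, lay between -0.31 and 0.27 in brainstem/cerebellum, and their median in spinal cord was -0.92. The part of any of these cell types in the members' values was not tested.

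For 3 members, the genes with the nearest pattern over the 4 arrays were found among 14984 genes that were well above background on all of them and carried a symbol listed by RefSeq, by the root-mean-square distance of mean-centred log2 values. Nearest to Apoe were Ybx1 (0.015), Efemp2 (0.022) and Slc31a2 (0.038), each between 0.96 and 1.02 in spinal cord. Nearest to Abca1 were Plxnd1 (0.027), the microglial gene Nrros (0.033) and Mcemp1 (0.041). Nearest to Lpl were Sema4d (0.065), Crip1 (0.074) and Poc1a (0.077). These patterns rest on 4 values a gene.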

How the data were processed

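Per the labels' protocols, total RNA (TRIzol, then column purification) was amplified with a low-input kit and carried Cy3. Each of the 4 samples was hybridised to 1 Agilent array. The deposited scanner output gives the intensity of each spot, linear, background-subtracted and detrended within the array by Agilent Feature Extraction, version 10.7.1.1 per the file headers and 9.5.1.1 per the submitters' processing notes. Probe coordinates refer to mm9, per the file headers. The authors' series table holds intensities with a normalization not given in the sources used here. Each of its columns had a median of 30.4 and correlated at 0.99999 (Pearson) with a quantile normalization of the scanner signals.

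From these, each processed signal was divided by its array's 75th percentile and taken to log2, without control spots and the 63 to 134 outlier spots of an array. Spots of 1 probe were averaged, and the probe with the highest mean stood for a gene. A gene was called at 2-fold, bounds included, and counted where at least 1 of both arrays was well above background. The technical error came from probes with at least 8 spots, by level. Processing by R 4.3.3 with limma 3.58.1 (quantile, cyclic loess, normexp with an offset of 50), median and spike-in scaling, the authors' values, the mean of probes, other filters on dim probes and thresholds of 1.5-fold and 3-fold were the alternatives. Precision is limited by the number of arrays, since each group had 1, and no p-value is given. The calling was run on simulated arrays, made from the wild-type brainstem/cerebellum array with spot noise and planted changes. These hold no variation of animals, hybridisations or slides, so they cannot show how reliable the 2-fold calls are.

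The members and lists were chosen with earlier results of these data known. Named genes are the members, up to 3 genes per list with the largest difference past 2-fold in either tissue, up to 2 markers per cell type, and the 3 genes nearest in pattern to Apoe, Abca1 and Lpl, for which a RefSeq symbol was also required, a limit not in the original rule. Lists of 16 cell types and regions were used as checks. Signal over background limits dim genes to bounds. Stard1 of the enzyme list was not analysed here.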

Additional observations from a re-analysis of the deposited data

Results flagged for a closer look

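The Lpl probe annotated to an Ensembl transcript had differences of opposite sign in the tissues, transgenic minus wild type: 0.35 in brainstem/cerebellum and -0.86 in spinal cord on the log2 scale. The difference between the tissues was not tested, since each group was 1 array. The other 5 Lpl probes, some of them close to background, were higher in transgenic spinal cord.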

How the results depend on the processing

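No paired analysis was possible because each group was 1 array and the labels carry no replicate numbers. No member was 2-fold lower in any comparison under any of the 11 alternatives, and no member past 2-fold changed sign. Of 250 recomputed counts and medians, 194 stayed within 1.5 times the main count or within 1 technical SD. The members' median in brainstem/cerebellum (0.49) was 0.33 with median scaling, 0.60 with cyclic loess and 0.35 over probes above background on all arrays. In spinal cord (1.69) it was 1.23 with spike-in scaling, 1.56 with normexp and 1.81 with the mean of probes. Between wild-type tissues (0.26) it was 0.15 with median scaling, 0.10 with quantile normalization, 0.47 with spike-in scaling, 0.15 with normexp, 0.10 with the authors' values, 0.080 with the mean of probes and 0.45 without a filter on dim probes. Between transgenic tissues (1.22) it was 0.87 with spike-in scaling, 1.47 with the mean of probes and 1.09 over probes above background on all arrays. At 1.5-fold, 5 members were higher in brainstem/cerebellum, beside 1844 of all 22447 genes. In wild-type spinal cord over brainstem/cerebellum 4 were higher at 1.5-fold, beside 4417 of 22827. At 2-fold in that comparison, spike-in scaling gave 2 members, beside 3051 of 23203 genes. The mean of probes gave 1 there, beside 1787 of 22049. For the lists in brainstem/cerebellum, median scaling gave medians of -0.047 (other apolipoproteins), -0.30 (LXR and RXR genes), -0.27 (transporters), -0.065 (receptors), -0.053 (lipases), -0.25 (oxysterol and ester enzymes) and -0.057 (lipid droplet genes). The mean of probes gave 0.25 for apolipoproteins, 0.068 for transporters, -0.047 for receptors, 0.017 for oxysterol and ester enzymes and 0.31 for lipid droplet genes. Normexp gave 0.0044 for lipases, no filter gave -0.12 for apolipoproteins and -0.062 for lipid droplet genes, and probes above background on all arrays gave -0.060 for the latter. In spinal cord, spike-in scaling gave -0.71 (apolipoproteins), -0.40 (LXR and RXR genes), -0.63 (transporters), -0.070 (receptors), -0.20 (lipases), -0.62 (oxysterol and ester enzymes) and -0.38 (lipid droplet genes). There the mean of probes gave -0.51 for apolipoproteins, 0.22 for receptors, 0.13 for lipases and 0.26 for lipid droplet genes, and cyclic loess 0.17 for LXR and RXR genes and 0.50 for receptors. Normexp gave -0.026 for apolipoproteins, 0.14 for lipases and 0.013 for oxysterol and ester enzymes. Apolipoproteins stood at 0.37 without a filter and 0.069 over probes above background on all arrays, which gave 0.24 for receptors and 0.50 for lipid droplet genes. The cause was not tested. Over all genes, calls in brainstem/cerebellum (790 higher, 153 lower) were 602 and 247 with median scaling, 653 and 235 with quantile normalization, 651 and 232 with the authors' values, 231 and 24 with normexp, 2256 and 1119 without a filter and 489 and 51 over probes above background on all arrays. In spinal cord (2146 higher, 2006 lower) they were 1220 and 5294 with spike-in scaling, 1051 and 840 with normexp, 3435 and 3905 without a filter and 1395 and 1594 over probes above background on all arrays. Between wild-type tissues (2051 and 1178) they were 3051 and 838 with spike-in scaling and 802 and 530 with normexp, and between transgenic tissues (2305 and 1667) 1369 and 3272, and 1137 and 819. Signal over background limited Apoc4 to bounds.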
